A study of Mus musculus with 4 samples.

Results

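The chemokine genes of the mouse were examined in mammary gland cells 3 days after transplantation, on microarrays that report RNA as log2 expression. Chemokines were taken by name, as every gene whose platform symbol begins with Ccl or Cxcl and a number, or is Cx3cl1. They made up 33 of the 17097 genes measured. A gene is represented by its probe set, a group of probes for a single transcript, with the highest mean over the 4 arrays. The BC alone group had received 10000 BC cells, which the labels call the multipotent condition. The control group had received 8000 LC cells and 2000 BC cells together, called unipotent. BC and LC are read in this field as basal and luminal cells, which the labels do not spell out, and no strain, genotype, age, gate or pooling of animals is given. Each group had 2 arrays, each made from 50 sorted cells, and nothing says that they came from separate animals. A p-value here reflects the spread among 4 arrays, which could be technical, and so few arrays limit the precision.

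Chemokines are small secreted proteins that guide leukocytes along gradients by binding G protein-coupled receptors. The names follow the spacing of the conserved cysteines, adjacent in the CC class, separated by a single residue in the CXC class and by several in Cx3cl1. Inflammatory chemokines are induced by cytokines such as interleukin-1 through NF-kappaB, and others are made constitutively by epithelium or stroma. In the mammary gland they recruit macrophages and other leukocytes during ductal growth and involution.

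Many chemokine genes lie in chromosomal clusters, and the promoters of 4 chemokines are shown because each holds letters of an NF-kappaB motif while their values differed in direction. The 250 bases before the transcription start, credited to RefSeq with the build GRCm38.p6, are given 5′ to 3′ for Cxcl2 and its neighbour Cxcl1, for Cxcl10, and for Ccl9 of another cluster. Capitals mark letters that match the NF-kappaB consensus on either strand.
Cxcl2: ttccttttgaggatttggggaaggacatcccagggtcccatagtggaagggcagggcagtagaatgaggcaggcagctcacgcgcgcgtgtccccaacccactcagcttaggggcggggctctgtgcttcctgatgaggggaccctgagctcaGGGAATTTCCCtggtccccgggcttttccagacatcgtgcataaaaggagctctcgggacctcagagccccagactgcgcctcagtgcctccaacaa
Cxcl1: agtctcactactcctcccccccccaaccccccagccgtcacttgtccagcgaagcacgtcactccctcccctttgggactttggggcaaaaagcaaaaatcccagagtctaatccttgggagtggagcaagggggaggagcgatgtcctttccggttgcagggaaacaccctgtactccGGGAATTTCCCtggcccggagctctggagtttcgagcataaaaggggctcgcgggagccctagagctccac
Cxcl10: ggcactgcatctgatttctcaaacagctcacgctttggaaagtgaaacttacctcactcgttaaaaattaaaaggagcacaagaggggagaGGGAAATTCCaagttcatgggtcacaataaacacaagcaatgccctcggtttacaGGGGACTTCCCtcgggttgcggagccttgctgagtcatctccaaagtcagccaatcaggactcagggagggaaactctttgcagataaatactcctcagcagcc
Ccl9: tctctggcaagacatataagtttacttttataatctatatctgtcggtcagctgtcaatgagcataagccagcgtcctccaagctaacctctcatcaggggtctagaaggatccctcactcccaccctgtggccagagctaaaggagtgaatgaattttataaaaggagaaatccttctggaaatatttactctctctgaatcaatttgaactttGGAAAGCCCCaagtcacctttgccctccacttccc
Cxcl2 is at chr5:90903649-90903898 on the plus strand and Cxcl1 at chr5:90890995-90891244 on the plus strand. Cxcl10 is at chr5:92348890-92349139 on the minus strand and Ccl9 at chr11:83578637-83578886 on the minus strand. Cxcl2 and Cxcl1 carry the same 11 letters, GGGAATTTCCC, which begin 97 bases before the start in Cxcl2 and 71 bases before it in Cxcl1. In each the match on the plus strand and that on the minus strand overlap. Cxcl10 holds GGGAAATTCC from 159 and GGGGACTTCCC from 104 bases before its start, and Ccl9 holds GGAAAGCCCC from 35 bases before its start. Promoter sequences were found for 23 of the 33 genes, and 6 held a match, the other two being Ccl1 and Ccl20. A match stood in 7.25% of all 32851 promoters of this length. A second motif, GAAA followed by any 2 bases and GAAA on either strand, which is found in interferon-responsive promoters, stood in 3 of the 23, namely Ccl19, Cxcl10 and Cxcl14, and in 2.98% of all promoters. The 23 genes had 26 promoters, and chemokines are counted here by gene but the background by promoter, so these shares are not like for like. The 4 promoters shown and both motifs were chosen after the values were seen, and a match is a description of letters.

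Control replicate 2 stood apart from the other 3 arrays. Its values spanned a narrower range, with a median of 4.09 for the dimmer genes, those whose mean was below the median of all genes, against 3.72 to 3.73 on the other arrays. For the brighter genes it had 6.21, against 6.73 to 6.78. Computed across probe sets, it correlated with the others at 0.915 to 0.919, while those correlated at 0.969 to 0.973. The basal keratin gene Krt5 was at 7.12 there and at 10.22 to 10.76 elsewhere, and the luminal keratin gene Krt8 at 8.0 against 10.16 to 10.42. Both keratins were thus bright in both groups, also where BC cells had been given alone, and so was the collagen gene Col1a1 of fibroblasts, at 8.62 to 10.91. Each difference is therefore also given without that array, which leaves the mean of the BC alone arrays minus control replicate 1.

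**Figure D1:**
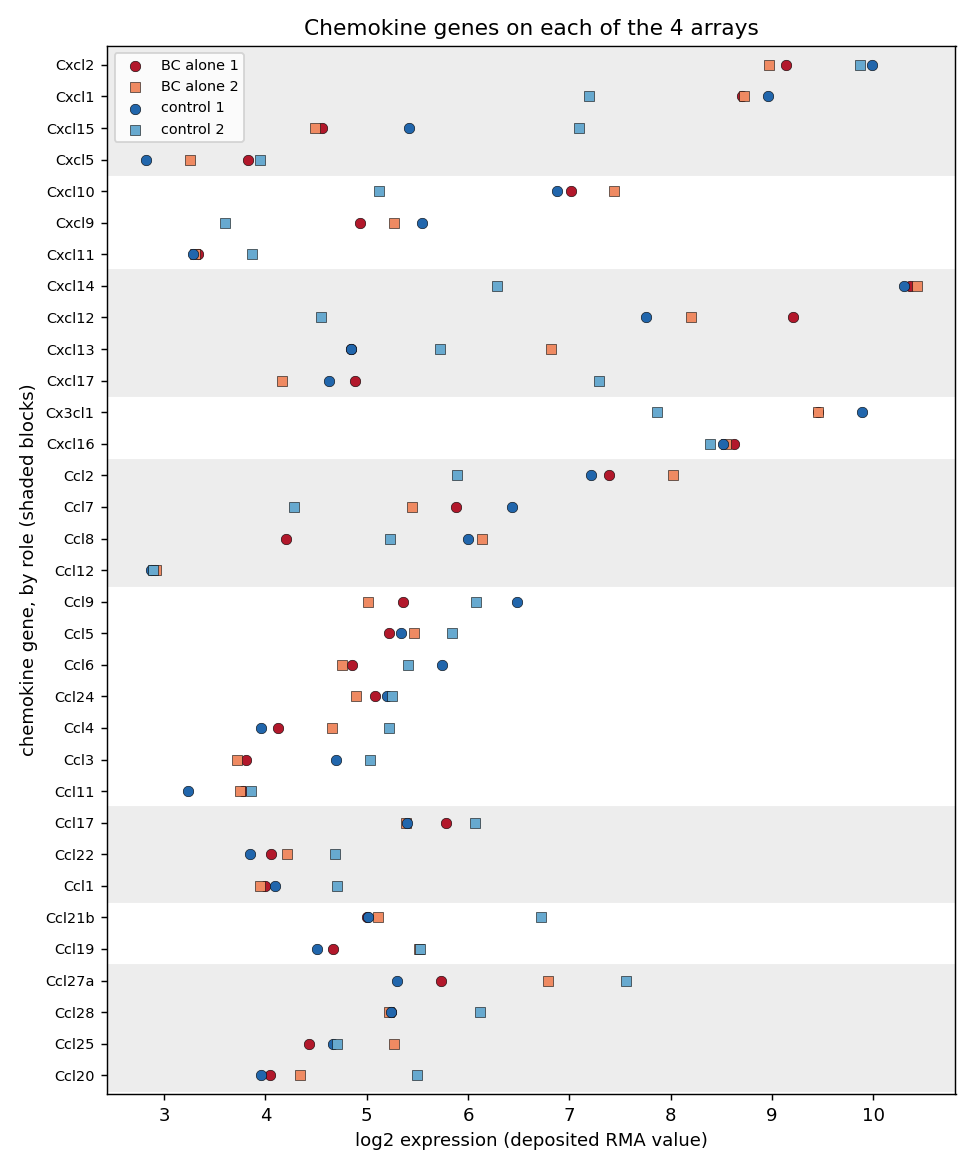
The log2 expression of each of the 33 chemokine genes on the 4 arrays (x axis), grouped by role in shaded and unshaded blocks. From the top the blocks are neutrophil attractants, CXCR3 ligands, other CXC, transmembrane, the monocyte chemoattractant family, inflammatory CC chemokines, CCR4 and CCR8 ligands, CCR7 ligands, and mucosal CC chemokines. Control replicate 2 sits far to the left for Cxcl14 and Cxcl12, and both control arrays lie to the right of both BC alone arrays for Cxcl2, Ccl3, Ccl6 and Ccl9.

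As a family the chemokines were divided. Compared with the control, 15 of the 33 had a higher mean in BC alone and 18 a lower one, with a median log2 difference of -0.15, against -0.04 over all genes. The 2 arrays of BC alone lay above both controls for 6 chemokines, or 18.2%, where 16.8% of all genes did so, and below both for 7, or 21.2%, where 19.6% of all genes did. In either direction 36.4% of all genes did not overlap, so these shares are near the background. At a difference of at least 2-fold the count was 4 higher, namely Cxcl12, Cxcl14, Cxcl10 and Ccl2 (12.1%, against 4.79% of all genes), and 3 lower, namely Cxcl15, Ccl3 and Ccl9 (9.09%, against 0.895%). Together these are 7 of 33, where 5.69% of all genes met both criteria. Without control replicate 2 the 2-fold count was 1, Ccl9 (3.03%, against 4.28% of all genes), and without control replicate 1 it was 14 (42.4%, against 22.4%). The split of 4 higher and 3 lower became 3 and 3 after quantile normalization, 4 and 1 after median centring and 2 and 3 after cyclic loess. Over all genes 819 higher and 153 lower became 334 and 280, 1143 and 100, and 301 and 232.

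No chemokine passed an adjusted p of 0.05 in limma, and 0% of all genes did, so the count of calls was 0. The adjusted p of the 33 ran from 0.842 to 0.968. At an unadjusted p under 0.05 in limma there were 4 chemokines, or 12.1%, against 3.98% of all genes. They were Ccl3, Ccl9, Cxcl15 and Cxcl2, each lower in BC alone. The smallest p that an exact permutation test allows in this design is 0.333. When limma's prior variance followed the mean level, Cxcl12 passed at an adjusted p of 0.038, and over its alternatives that p ran from 0.000826 to 0.999.

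**Figure D2:**
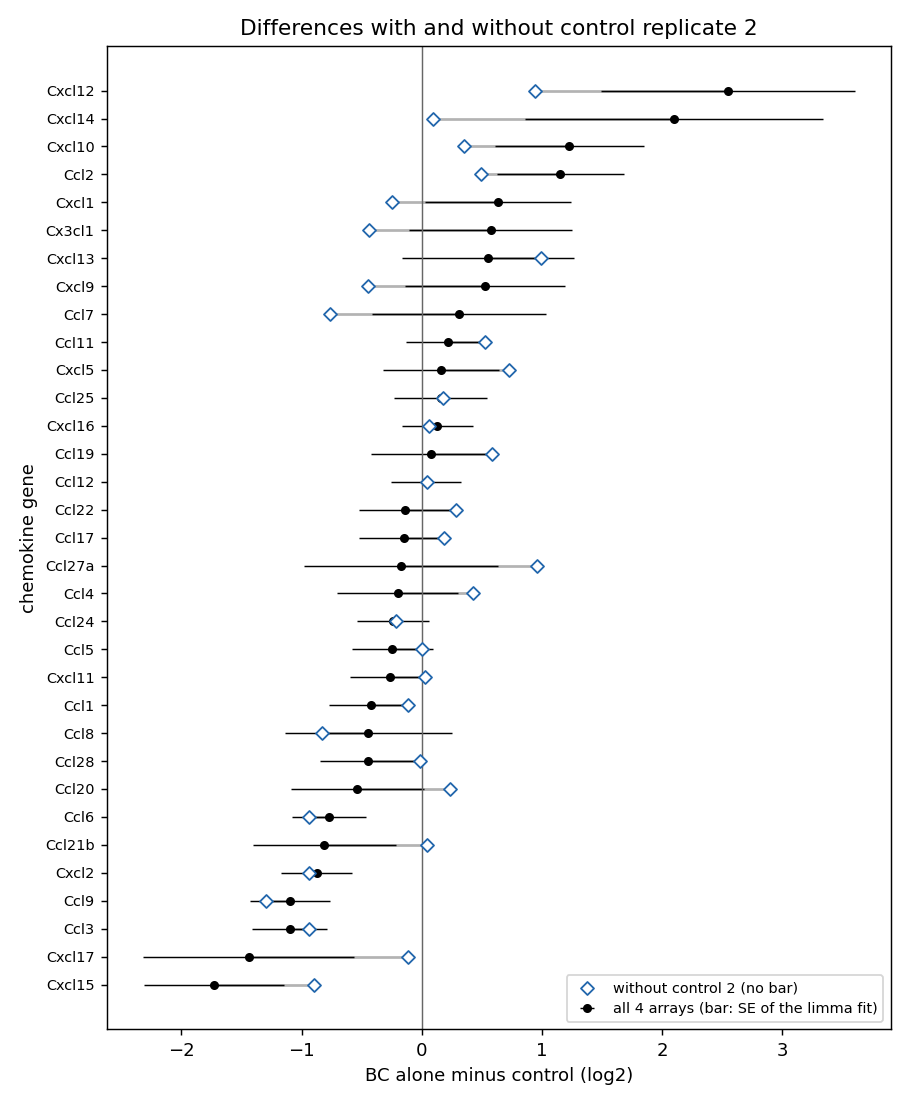
BC alone minus control on the log2 scale (x axis) for each chemokine gene (y axis), over all 4 arrays with the standard error of the limma fit (filled points and bars) and without control replicate 2 (open diamonds). Cxcl12 moves from 2.55 to 0.945 and Cxcl14 from 2.10 to 0.095, while Cxcl2, Ccl9, Ccl6 and Ccl3 stay between -1.295 and -0.77.

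Among the CXC chemokines that attract neutrophils through CXCR2, Cxcl2 was lower in BC alone and its neighbour Cxcl1 was not. Cxcl2 had log2 values of 9.14 and 8.97 in BC alone and of 9.99 and 9.87 in the control. The groups did not overlap, and the gap between them was wider than that between arrays of a group. The difference was -0.875 ± 0.30 (SE), a 1.83-fold lower level, and -0.935 without control replicate 2. It was -1.51 after quantile normalization and -1.69 after cyclic loess. Cxcl1 had 8.70 and 8.72 in BC alone and 8.96 and 7.19 in the control, whose arrays lay on either side of BC alone. Its difference of 0.635 ± 0.61 turned to -0.25 without control replicate 2 and to -0.04 after cyclic loess normalization of the arrays. Their promoters share the NF-kappaB letters printed above.

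Cxcl15, a neutrophil attractant best known from lung epithelium, had 4.56 and 4.49 in BC alone and 5.42 and 7.09 in the control. All control values were higher, but the control arrays differed from each other by more than control replicate 1 did from BC alone. The difference was -1.73 ± 0.58 (SE), or 3.32-fold lower, and -0.895 without control replicate 2. A dimmer probe set of Cxcl15 read 3.98 and 4.68 against 5.28 and 6.85, with the same order of the groups. Cxcl5, like Cxcl1 and Cxcl2 a CXCR2 ligand, ran from 2.82 to 3.95, with the control arrays at both ends. Cxcr2, the receptor for Cxcl1, Cxcl2 and Cxcl5, lay between 3.09 and 3.33 on all arrays.

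Of the CXCR3 ligands, which interferon gamma induces and which attract activated T cells, Cxcl10 was higher in BC alone. It had 7.02 and 7.44 there and 6.88 and 5.12 in the control. Control replicate 1 lay just below BC alone and control replicate 2 far below it. The difference was 1.23 ± 0.62 (SE), a 2.35-fold higher level, and 0.35 without control replicate 2. Cxcl9 had 4.93 and 5.27 in BC alone against 5.55 and 3.60, overlapping, and its difference of 0.525 ± 0.66 turned to -0.45 without control replicate 2. Cxcl11, annotated as a transcribed pseudogene in GRCm38.p6, was at 3.33 and 3.31 against 3.29 and 3.87.

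The interferon gamma response list was divided. Of 7 measured genes 2 had a lower mean in BC alone, Gbp3 had the same mean of 3.315 in both groups, and the rest were higher. The median difference of 0.445 turned to -0.085 without control replicate 2. The receptor chain Ifngr2 had 8.01 and 7.53 in BC alone and 6.77 and 6.19 in the control, with no overlap, a difference of 1.29 ± 0.37 (SE) that came to 0.82 after cyclic loess. Irf8, a transcription factor of myeloid cells, went the other way, with 4.56 and 4.91 against 5.48 and 5.22. These were the clearest of the list in opposite directions. Gbp2 and Irf1, both induced by interferon, differed by 0.77 and 0.495, and by 0.10 and 0.07 without control replicate 2. Irf1 turned to -0.20 after quantile normalization and -0.18 after cyclic loess. Ifng itself ran from 3.31 to 3.66.

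Cxcl12 and Cxcl14, chemokines made by stroma and by epithelium, had the largest differences of the 33, and both rested mostly on control replicate 2. Cxcl12, the ligand of CXCR4, had 9.21 and 8.20 in BC alone and 7.76 and 4.55 in the control. Both BC alone arrays were higher, and control replicate 2 lay 3.21 below the next array. The difference was 2.55 ± 1.06 (SE), or 5.86-fold, and 0.945 without control replicate 2. The other two probe sets of Cxcl12 read 7.46 and 7.52 against 7.36 and 4.01, and 5.62 and 6.92 against 6.19 and 4.76. Without control replicate 2 the 3 probe sets thus put BC alone well above the control, just above it and on both sides of it.

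Cxcl14, which basal mammary cells express, had 10.36 and 10.43 in BC alone and 10.30 and 6.29 in the control. Control replicate 1 lay next to the BC alone arrays, and control replicate 2 lay 4.01 below it. The difference of 2.10 ± 1.24 (SE), or 4.29-fold, came to 0.095 without that array and 1.30 after cyclic loess. Its dimmer probe set read 9.24 and 8.62 against 9.45 and 5.23. The basal markers Krt14, Trp63, Acta2 and Myh11 had the same low array, at 6.78, 5.20, 6.84 and 5.68 there against 8.74 or more on the other 3. Cnn1 was also lowest there, at 4.76 against 6.79 to 8.15. Oxtr was not, at 5.40 there and lowest on BC alone replicate 1, at 5.16. Over 7 basal markers the mean was 9.10 and 8.75 in BC alone and 9.22 and 5.97 in the control. The median difference of 1.405 turned to -0.415 without control replicate 2, with 6 of the 7 lower in BC alone. The part of these markers in the result was not tested.

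In each of the remaining CXC genes a single array lay far from the rest. Cxcl17, a mucosal chemokine that attracts myeloid cells, had 4.88 and 4.16 in BC alone and 4.63 and 7.29 in the control. Its difference of -1.44 ± 0.88 (SE) came to -0.11 without control replicate 2. Cxcl13, which draws B cells through CXCR5, had 4.84 and 6.82 against 4.84 and 5.72. BC alone replicate 2 was the highest array, and its difference of 0.55 ± 0.72 turned to -0.44 without it. Its dimmer probe set ran from 3.24 to 3.98 and differed the other way.

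The transmembrane chemokines, which act as adhesion molecules until proteases shed them, had control replicate 2 as their lowest array. Cxcl16, the ligand of CXCR6, had 8.62 and 8.55 in BC alone and 8.52 and 8.39 in the control. Its arrays lay within 0.23 of each other, and its difference of 0.13 ± 0.30 (SE) turned to -0.58 after quantile normalization, -0.56 after cyclic loess and -0.14 with the mean of its probe sets. Its dimmer probe set read 6.20 and 6.69 against 7.12 and 6.60, highest on control replicate 1. Cx3cl1, fractalkine, had 9.45 on both BC alone arrays and 9.89 and 7.86 in the control. The control arrays lay on either side, and its difference of 0.575 ± 0.68 turned to -0.44 without control replicate 2, -0.135 after quantile normalization and -0.20 after cyclic loess. Its dimmer probe set read 6.39 and 7.32 against 7.23 and 6.29, so that BC alone replicate 1 was about as low there as control replicate 2.

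Receptors and shedding enzymes of this pair were read beside them. Cx3cr1, the fractalkine receptor of macrophages and other leukocytes, had 3.97 and 3.99 in BC alone and 4.90 and 4.79 in the control. The groups did not overlap, and the difference was -0.865 ± 0.29 (SE), or -0.92 without control replicate 2. Adam17 and Adam10, the sheddases, differed by 0.83 and 1.115, and by 0.62 and 0.11 without control replicate 2. Adam17 differed by 0.21 after quantile normalization and 0.24 after cyclic loess, and Adam10 by 0.50 and 0.40. Mmp2 and Dpp4, proteases that trim chemokines, differed by 2.25 and 1.24, and by 0.365 and 1.29 without that array. Mmp9 had 4.12 and 4.17 against 5.13 and 5.05. Of 7 measured genes for processing and presentation 6 had a higher mean in BC alone, with a median difference of 1.115, and of 0.11 without control replicate 2.

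In the monocyte chemoattractant family, Ccl2 was higher in BC alone. Ccl2, the main ligand of CCR2 on monocytes, had 7.39 and 8.02 there and 7.21 and 5.89 in the control. Control replicate 1 lay just below the lower BC alone array, and control replicate 2 further down. The difference was 1.155 ± 0.53 (SE), or 2.23-fold, and 0.495 without control replicate 2 and 0.68 after cyclic loess. Ccl7, its neighbour, had 5.88 and 5.45 against 6.43 and 4.28. The control arrays lay at both ends, and its difference of 0.31 ± 0.72 turned to -0.765 without control replicate 2.

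Ccl8 differed more between the BC alone arrays than between groups. It had 4.20 and 6.14 in BC alone and 6.0 and 5.23 in the control, a difference of -0.445 ± 0.69 (SE), which turned to 0.525 without BC alone replicate 1. The macrophage complement genes C1qa, C1qb and C1qc also had low values on BC alone replicate 1, at 4.57, 4.63 and 4.66, and 7.05 to 7.26 on BC alone replicate 2. Control replicate 2 was nearly as low for C1qa and C1qb, at 5.08 and 4.91, and had 5.51 for C1qc. Control replicate 1 had 6.34, 6.76 and 7.05. Ccl12 stayed between 2.87 and 2.92 on all arrays.

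The inflammatory CC chemokines, which attract macrophages, eosinophils and T cells, lay mostly on 1 side. Of 7 measured, 6 had a lower mean in BC alone and 4 lay below both controls on both arrays, against 19.6% of all genes. Of all 17097 genes 8029 had a higher mean in BC alone. Without control replicate 2 a lower mean remained for 4 of the 7. Ccl3 had 3.81 and 3.72 in BC alone and 4.70 and 5.03 in the control. The arrays of each group lay close together, and the groups were far apart by comparison. The difference was -1.10 ± 0.31 (SE), or 2.14-fold lower, and -0.935 without control replicate 2.

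Ccl9, a CCR1 ligand of myeloid cells, had 5.36 and 5.01 in BC alone and 6.48 and 6.08 in the control. Control replicate 1 was the highest array. The difference was -1.095 ± 0.33 (SE), or 2.14-fold lower, and -1.295 without control replicate 2. A dimmer probe set of Ccl9 read 3.76 and 3.66 against 3.73 and 4.29, so that on control replicate 1 it did not stand above BC alone. Ccl6, another CCR1 ligand of myeloid cells, had 4.85 and 4.76 against 5.74 and 5.41. The groups did not overlap, with a difference of -0.77 ± 0.31, or 1.71-fold lower, and -0.935 without control replicate 2.

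The other inflammatory CC chemokines differed less. Ccl24, an eotaxin that acts on eosinophils through CCR3, had 5.08 and 4.89 against 5.20 and 5.25, without overlap, a difference of -0.24 ± 0.30 (SE). Ccl5, also called RANTES, had 5.22 and 5.47 against 5.34 and 5.84. Ccl4, which lies next to Ccl3, had 4.12 and 4.66 against 3.96 and 5.22. The control arrays of Ccl4 lay at both ends, and its difference of -0.20 turned to 0.43 without control replicate 2. Ccl11, the other eotaxin, ran from 3.24 to 3.86.

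Of the 2 clusters on chromosome 11, the genes of 1 shared the direction of their means. In the order of GRCm38.p6 on chromosome 11, Ccl5, Ccl9, Ccl6, Ccl3 and Ccl4 follow each other with 0 other coding genes between. All 5 had a lower mean in BC alone over the 4 arrays, and Ccl5 and Ccl4 had a higher one without control replicate 2, by 0.005 and 0.43. The 3 inner genes were the ones lower in BC alone without overlap, and Ccl5 and Ccl4 at the ends overlapped. Of all genes 19.6% lay below both controls and 16.8% above both. In the other cluster on chromosome 11, of the 6 genes from Ccl2 to Ccl1, 2 lay higher without overlap, namely Ccl2 and Ccl12, the latter by 0.035, and 1 lower, Ccl1. On chromosome 5 Cxcl15, Cxcl1 and Cxcl2 are adjacent, and Cxcl1 differed in sign from both neighbours over all 4 arrays, but not without control replicate 2.

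**Figure D3:**
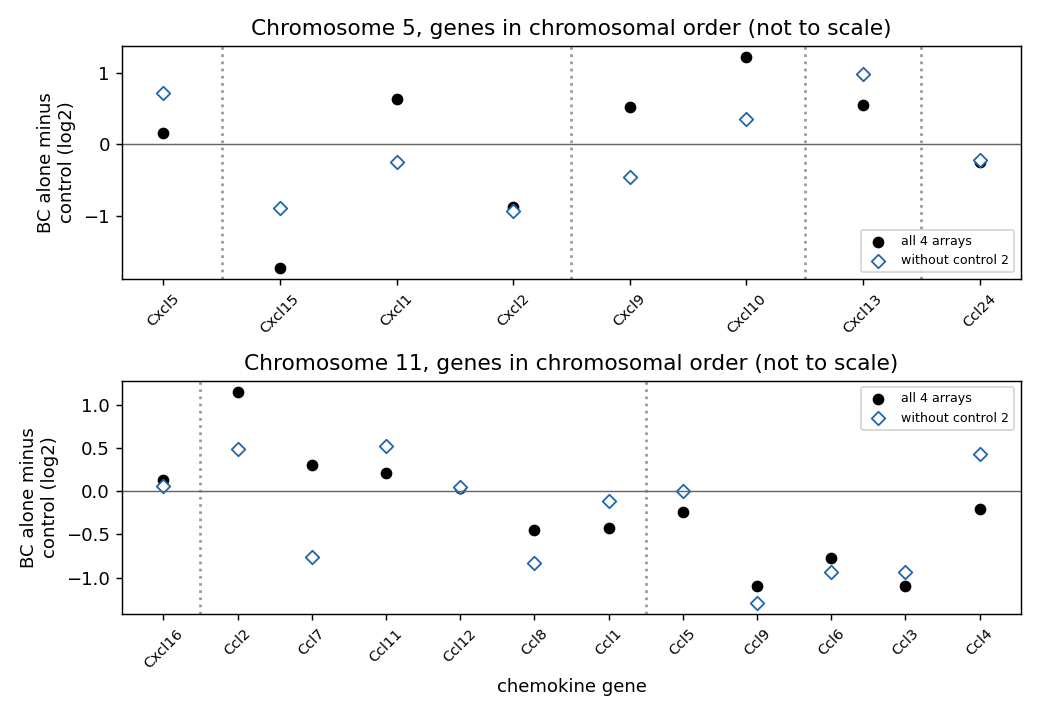
BC alone minus control on the log2 scale (y axis) for the chemokine genes of chromosomes 5 and 11 in chromosomal order (x axis, not to scale), over all 4 arrays (filled) and without control replicate 2 (open). Dotted lines part genes with more than 2 other coding genes between them. Ccl9, Ccl6 and Ccl3 lie between -1.295 and -0.77 with or without that array, and Ccl4 moves from -0.20 to 0.43.

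Ligands of CCR4 and CCR8, which act on regulatory and helper T cells, differed little. Ccl17 had 5.78 and 5.39 in BC alone and 5.40 and 6.07 in the control. Its dendritic cell partner Ccl22 had 4.06 and 4.21 against 3.85 and 4.69, and the control arrays enclosed the BC alone arrays. Ccl1 had 4.00 and 3.95 against 4.09 and 4.71, without overlap, and differed by -0.115 without control replicate 2.

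The CCR7 ligands, which guide T cells and dendritic cells into lymph nodes, overlapped between the groups. Ccl19 had 4.67 and 5.52 in BC alone and 4.51 and 5.53 in the control. Ccl21b had 5.0 and 5.11 against 5.01 and 6.72, and its probe set may also bind transcripts of its near-identical copies, so its value is uncertain. Its difference of -0.81 ± 0.59 (SE) turned to 0.045 without control replicate 2. Ccr7 was not analysed here.

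Of the mucosal and skin chemokines of the CC class, Ccl28, Ccl20 and Ccl27a had control replicate 2 as the highest array, and Ccl25 had BC alone replicate 2. Ccl28, a mucosal chemokine of secretory glands that acts on CCR10, had 5.24 and 5.22 in BC alone and 5.24 and 6.12 in the control. Control replicate 1 equalled BC alone replicate 1, and only control replicate 2 stood off. Ccl20, the ligand of CCR6, had 4.05 and 4.34 against 3.96 and 5.5, and Ccl25, the ligand of CCR9, ran from 4.43 to 5.27. Ccl27a, a skin chemokine that also acts on CCR10, had 5.73 and 6.79 against 5.30 and 7.56. Its 4 probe sets disagreed, differing by -0.17, -0.60, 0.35 and -0.645, and some can bind related transcripts.

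For many chemokines a single array lay far from the other 3. Control replicate 2 was the lowest array by at least 1 on the log2 scale for 8 of the 33, or 24.2%, where it was so for 12.1% of all genes. Beside Cxcl14, Cxcl12, Cxcl10, Ccl2 and Cxcl1 these were Cx3cl1, Cxcl9 and Ccl7. It was the highest by as much for 4, or 12.1%, where it was so for 2.29% of all genes, namely Cxcl17, Cxcl15, Ccl21b and Ccl20. On the other arrays such a gap was seen for Cxcl12, highest on BC alone replicate 1, for Ccl8, lowest there, and for Cxcl13, highest on BC alone replicate 2. The range over the 4 arrays had a median of 1.31 in chemokines and 0.81 over all genes.

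Most chemokine receptor genes had a slightly lower mean in BC alone, and no gene of this or the following lists passed the test. Of 18 measured receptors 14 had a lower mean in BC alone and 6 lay below both controls, against 19.6% of all genes. The median difference was -0.1775. After cyclic loess 9 of the 18 had a lower mean, and without control replicate 2 the number was 10. Ccrl2, an atypical receptor that binds chemerin, had 6.55 and 6.02 in BC alone and 7.72 and 7.29 in the control, with no overlap. Its difference was -1.22 ± 0.36 (SE), or 2.33-fold lower, and -1.435 without control replicate 2. Ackr4, a scavenger of CCR7 and CCR9 ligands, was the single receptor above both controls, with 5.66 and 6.69 against 5.46 and 3.94. Ackr3, a scavenger of Cxcl12, had 5.56 and 5.5 against 5.83 and 3.78, and its difference of 0.725 turned to -0.30 without control replicate 2. Ccr9 had 4.07 and 4.13 against 4.15 and 5.34. Cxcr4, the signalling receptor of Cxcl12, was not analysed here.

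Inducers of chemokines were divided. Il1b, which induces neutrophil and monocyte chemokines through NF-kappaB, had 4.83 and 5.14 in BC alone and 6.45 and 6.72 in the control, a difference of -1.60 ± 0.32 (SE) and of -1.465 without control replicate 2. The NF-kappaB subunit gene Rela had 8.87 and 9.16 against 8.67 and 6.97, with a difference of 0.345 without control replicate 2. Nfkbiz and Tnfaip3, targets and regulators of the pathway, differed by 0.88 and 0.565. Nfkbiz came to 0.25 without control replicate 2, 0.15 after quantile normalization and 0.12 after cyclic loess, and Tnfaip3 turned to -0.09 and -0.04 under these scalings. Of 13 measured genes 5 lay above and 4 below both controls, against 16.8% and 19.6% of all genes. The median difference of 0.055 turned to -0.085 after quantile normalization, -0.04 after cyclic loess and -0.075 without control replicate 2. Platelet factor gene Pf4, a CXC chemokine named outside the pattern, had 4.76 and 4.46 against 5.34 and 4.98, and Xcl1 and Ppbp differed by -0.295 and -0.08.

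Most leukocyte markers had a lower mean in BC alone, beside Cxcl2, Ccl3, Ccl6 and Ccl9, and none passed the test. All 8 pan-leukocyte markers had a lower mean and 4 lay below both controls, against 19.6% of all genes. The list means were 4.86 and 5.36 in BC alone and 6.22 and 5.25 in the control. Laptm5, a lysosomal protein of leukocytes, had 4.88 and 5.25 against 6.51 and 5.88, and Ptprc, which encodes CD45, had 2.91 and 3.27 against 4.21 and 3.26. Of 12 macrophage markers 8 had a lower mean and 5 lay below both controls, with list means of 4.76 and 5.80 against 6.04 and 5.42. The median difference of the pan-leukocyte list was -0.7075, and -0.24 without control replicate 1. That of the macrophage list was -0.4475, and came to -0.1075 without control replicate 1 and -0.145 without BC alone replicate 1, each with 6 markers higher and 6 lower. Mpeg1 and Lyz2, of macrophage granules and lysosomes, differed by -1.245 ± 0.37 and -1.055 ± 0.39 (SE), while the defining marker Adgre1 overlapped, with 3.10 and 4.61 against 4.03 and 4.83. The 4 macrophage markers with a higher mean in BC alone were Cd68, Fcgr1, C1qa and C1qb, by 0.385, 0.26, 0.11 and 0.11, each with overlap. Neutrophil markers had a lower mean for all 7 measured, among them S100a8, with 4.01 and 3.84 against 6.81 and 4.20, but 3 of the 7 were higher without control replicate 2 and 2 after quantile normalization. Of 9 measured lymphocyte markers 7 had a lower mean, with a median difference of -0.18, and of 0.02 without control replicate 2. Cd3e of this list went the other way, with 4.91 and 4.47 in BC alone and 3.15 and 4.15 in the control. Its groups did not overlap, and its difference was 1.04 ± 0.44 (SE), or 1.54 without control replicate 2. The part of these markers in the chemokine differences was not tested, and fewer cells of a type and less RNA per cell cannot be told apart in such samples.

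**Figure D4:**
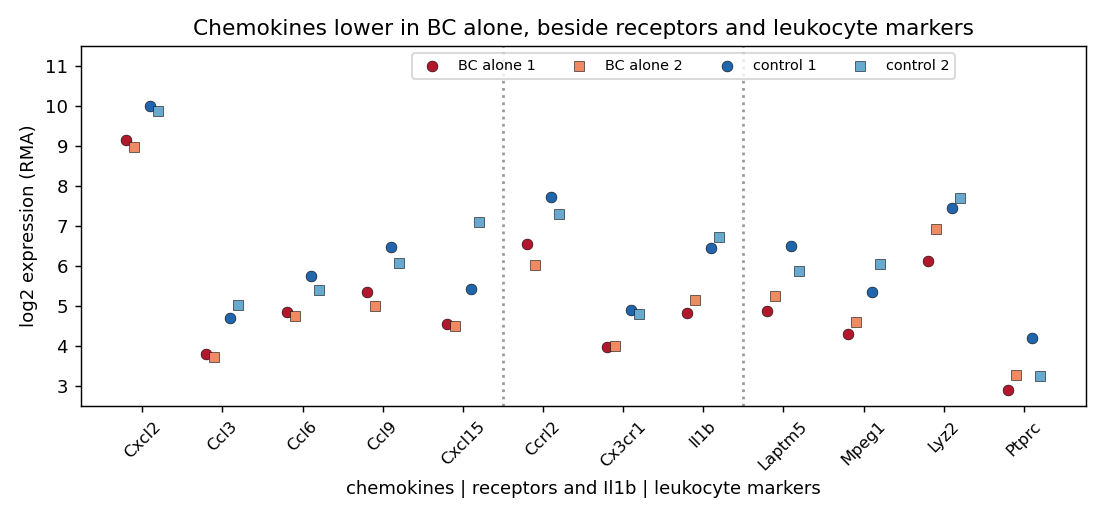
Log2 expression on the 4 arrays (y axis) of 5 chemokine genes that were lower in BC alone, of the receptors Ccrl2 and Cx3cr1 and the cytokine Il1b, and of 4 leukocyte markers. These genes were picked for the plot after their values were seen. Both control arrays lie above both BC alone arrays for each gene but Ptprc, whose control replicate 2, at 3.26, lies just below BC alone replicate 2, at 3.27.

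Fibroblast markers were higher in BC alone, beside Cxcl12. Of 11 fibroblast markers 9 had a higher mean in BC alone and 8 lay above both controls, against 16.8% of all genes. The list means were 7.55 and 7.72 in BC alone and 6.67 and 5.85 in the control. Col1a1, a type I collagen chain, had 10.84 and 10.91 against 10.30 and 8.62. Without control replicate 2 all 11 were higher, with a median of 0.805. Of 8 endothelial markers 7 had a higher mean, with a median of 0.41, or 0.355 without that array. Luminal markers had list means of 7.30 and 7.94 in BC alone and 7.37 and 6.63 in the control, with a median difference of 0.775 and of 0.025 without control replicate 2. The part of these markers in the values of Cxcl12 was not tested.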

How the data were processed

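The authors deposited log2 expression per probe set, which the submitters' processing notes credit to RMA in affy without a version. RMA corrects background, normalises quantiles and summarises probes. The sources used here give no detection calls and do not state whether the arrays were normalised together, so dim genes are given as low, not as absent. Between any pair of arrays at most 771 of 45141 values were identical. The platform annotation, old in part, gave 28898 probe sets 1 symbol, 551 several and 15692 none, and chemokines had 48 of them. Entrez identifiers matched all 33 to the reference table.

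BC alone was compared with the control in limma 3.58.1 under R 4.3.3 (lmFit and eBayes, no trend or block, two-sided, Benjamini-Hochberg over 17097 genes, threshold 0.05, 2 residual and 3.50 prior degrees of freedom). The fit was also run on simulated data, in which a gene had equal, independent spread on every array. Control replicate 2 had a narrower range of values, so that run cannot show how the fit behaves on these arrays. No overlap means all arrays of a group lie above those of the other. Per-array values are given for members at or above the median gene, at 5.015, or 2-fold different without overlap, or ranging over at least 2 log2, and were added for some of the rest after seeing them. From each other list up to 4 genes with the smallest p were named, with 8 fixed genes of interest, and a few others were picked after seeing their values. The members and lists were chosen with earlier results of these data known. Alternatives covered scaling, probe sets, dim genes, the variance model, the replicate block and each array left out.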

Additional observations from a re-analysis of the deposited data

How the results depend on the processing

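Over the alternatives, 14 of the 33 chemokines kept the sign of their difference wherever they were tested, 5 higher and 9 lower in BC alone. They include Cxcl12, Cxcl14, Cxcl10 and Ccl2 among the higher ones and Cxcl2, Ccl3, Ccl6, Ccl9 and Cxcl15 among the lower ones. The groups of each gene named here did not overlap, so leaving out 1 array could not turn its sign. The variance model, the block and the removal of dim genes leave a difference unchanged. For these genes only the scalings and the mean of probe sets could have turned the sign. The count of chemokines past the threshold went from 0 to 1 with an intensity trend in limma and to 2 with the replicate block, and that of all genes from 0 to 97 and 108, and the cause was not tested. The 2 chemokines under the block were Cxcl12 (adjusted p = 0.000826 in limma) and Cxcl14 (adjusted p = 0.014 in limma). Deviations of same-numbered arrays from their group means correlated at -0.0184 over genes. With so few arrays, and control replicate 2 apart from the rest, this cannot show whether the numbers pair the arrays. The adjusted p of Cxcl12 ran from 0.000826 to 0.999 over its alternatives in limma. Leaving out 1 array at a time, 2-fold chemokines without overlap numbered 1 to 14 and those without overlap 17 to 30, with 1 array alone in a group. Over all genes the shares under these settings were 4.28% to 22.4% and 59.5% to 83.9%, against 3.03% to 42.4% and 51.5% to 90.9% of the chemokines. The lowest 2-fold count, 1, was that without control replicate 2, which left Ccl9. The median difference of the chemokines then ran from -0.435, without control replicate 1, to 0.045, without control replicate 2. Median centring moved the median of all genes from -0.04 to 0.085. The sign turned when some array was left out for 18 chemokines. Of these 8 did not meet the criteria for values by array, such as Ccl20 (to 0.235) and Ccl25 (to -0.26). The other 10 had ranges over the arrays left out, for Ccl17 (-0.485 to 0.185), Ccl19 (-0.435 to 0.585), Ccl21b (-1.665 to 0.045), Ccl27a (-1.30 to 0.96), Ccl5 (-0.495 to 0.005), Ccl7 (-0.765 to 1.385), Ccl8 (-1.415 to 0.525), Cx3cl1 (-0.44 to 1.59), Cxcl1 (-0.25 to 1.52) and Cxcl13 (-0.44 to 1.54). Scaling turned Cx3cl1 to -0.135 (quantile) and -0.20 (cyclic loess), Cxcl1 to -0.041 (cyclic loess) and Cxcl16 to -0.58 (quantile), -0.56 (cyclic loess) and -0.14 (mean of probe sets). With 2 arrays a group and no detection calls, dim members such as Ccl12 and Cxcl11 could not be told from background.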
